A study of Caenorhabditis elegans with 2 samples.

Results

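Chromatin immunoprecipitation and sequencing (ChIP-seq) of TBX-7, a T-box transcription factor of the nematode Caenorhabditis elegans, gave 8759 peaks when both replicates were pooled, and 296 of these had their summit within 200 bp of an annotated tRNA gene. These 296 peaks are described here. The members were all peaks that met this distance on chromosomes I to V and X, whatever their strength. Of the 296 peaks, 78 were also among the 690 peaks of the authors' optimal list. It was made with the irreproducible discovery rate (IDR) method, which draws on how alike peaks rank in replicates. The 612 annotated tRNA genes served as the reference for which genes had a peak, and 283 of them lay within 200 bp of a summit.

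Both replicates were whole late embryos of the hermaphrodite strain OP311, which stably expresses from a transgene a TBX-7 protein with GFP and FLAG at its C terminus. Collection was 3 h after the eggs had been bleached to synchronize them, chromatin was sonicated, and the sample descriptions name an antibody against GFP, while the antibody field names tbx-7, read here as the tagged target. The design held 1 group of 2 biological replicates, so no condition was compared, and the tag and the transgene were shared by both. In whole embryos, strong binding in few cells and weak binding in many cannot be told apart. No precipitation from embryos without the tag, or of another protein, was analysed here, so signal that belongs to TBX-7 and signal that any precipitation might give at tRNA genes cannot be told apart.

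Transfer RNA genes are short and are transcribed by RNA polymerase III. Their promoter lies inside the gene, where the A box and the B box are bound by the assembly factor TFIIIC, which places TFIIIB just upstream of the start, and transcription ends at a run of T. C. elegans has many tRNA genes in identical copies, a large part of them on the X chromosome and many inside introns of protein-coding genes. T-box factors, in contrast, are known as regulators of genes transcribed by RNA polymerase II, and bind DNA through a core of the letters GGTGT.

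The tRNA genes under 6 of the 7 strongest IDR peaks are shown because they carry the strongest signal at this class of genes. All 6 are on X, and the sequence of the fifth strongest, at C37A2.t1 on an autosome, is not printed here. Each sequence is from the RefSeq sequence of ce11 (WBcel235), 5′ to 3′ on the strand of the tRNA gene, with 50 bases before the gene and 25 after it. Capitals mark, in order, the A box, the B box core GTTCGANTC where present, and the first run of at least 4 T after the gene. F15G9.t1 (Ala, plus strand) is shown from chrX:9743539-9743685 and C04A11.t1 (Leu, plus strand) from chrX:13665505-13665698. F41D9.t3 (Asn, plus strand) is shown from chrX:8404449-8404596 and C28G1.t1 (Glu, plus strand) from chrX:8836063-8836209. W03G11.t1 (Lys, minus strand) is shown from chrX:12106122-12106269 and C33G3.t2 (Lys, minus strand) from chrX:14063921-14064068.
F15G9.t1: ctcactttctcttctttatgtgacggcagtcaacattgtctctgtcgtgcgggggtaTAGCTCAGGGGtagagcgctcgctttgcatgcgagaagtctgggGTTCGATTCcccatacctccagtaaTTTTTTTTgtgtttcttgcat
C04A11.t1: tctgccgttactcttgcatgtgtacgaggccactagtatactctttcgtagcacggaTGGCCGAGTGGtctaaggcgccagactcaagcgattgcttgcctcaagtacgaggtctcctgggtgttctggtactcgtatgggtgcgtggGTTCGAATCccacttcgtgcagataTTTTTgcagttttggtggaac
F41D9.t3: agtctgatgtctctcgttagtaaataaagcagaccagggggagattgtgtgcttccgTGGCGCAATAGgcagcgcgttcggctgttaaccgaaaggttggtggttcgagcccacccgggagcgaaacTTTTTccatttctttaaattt
C28G1.t1: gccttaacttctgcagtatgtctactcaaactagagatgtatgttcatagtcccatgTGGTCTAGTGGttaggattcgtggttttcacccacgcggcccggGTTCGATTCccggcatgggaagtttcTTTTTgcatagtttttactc
W03G11.t1: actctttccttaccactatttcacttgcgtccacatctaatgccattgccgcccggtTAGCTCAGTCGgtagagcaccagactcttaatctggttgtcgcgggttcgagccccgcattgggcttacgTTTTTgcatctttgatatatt
C33G3.t2: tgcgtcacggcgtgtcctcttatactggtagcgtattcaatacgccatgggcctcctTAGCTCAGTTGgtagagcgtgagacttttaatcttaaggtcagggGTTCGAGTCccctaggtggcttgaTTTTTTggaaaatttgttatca

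Copies of one gene differed in whether they had a peak. The same Ala gene as F15G9.t1 occurs as Y105C5A.t2 (chrIV:15604287-15604433, minus strand), the same Glu gene as C28G1.t1 as F11A1.t2 (chrX:10666997-10667143, minus strand) and the same Lys gene as C33G3.t2 as W07G4.t1 (chrV:13027003-13027150, minus strand, in an intron of fmi-1). None of these 3 copies had a summit within 200 bp in the pooled list or in either replicate list. A further pair were the Ser genes E03E2.t1 (chrX:5707978-5708134, plus strand), with an IDR peak, and K04A8.t2 (chrV:6551829-6551985, minus strand), which had a peak in replicate 1 but not in the pooled list. The sequences below show that each pair differs only outside the gene.
Y105C5A.t2: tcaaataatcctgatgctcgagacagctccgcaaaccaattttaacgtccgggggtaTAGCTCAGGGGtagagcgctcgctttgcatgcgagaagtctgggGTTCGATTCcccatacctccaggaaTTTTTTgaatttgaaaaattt
F11A1.t2: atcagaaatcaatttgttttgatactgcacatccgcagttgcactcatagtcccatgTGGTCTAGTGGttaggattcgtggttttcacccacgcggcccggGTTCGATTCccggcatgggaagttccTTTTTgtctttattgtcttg
W07G4.t1: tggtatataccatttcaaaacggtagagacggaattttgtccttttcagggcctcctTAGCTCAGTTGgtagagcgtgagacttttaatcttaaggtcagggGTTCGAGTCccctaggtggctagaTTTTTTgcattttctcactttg
E03E2.t1: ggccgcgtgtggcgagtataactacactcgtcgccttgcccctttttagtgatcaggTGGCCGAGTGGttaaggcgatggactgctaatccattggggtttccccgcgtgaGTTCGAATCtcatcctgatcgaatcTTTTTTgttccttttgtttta
K04A8.t2: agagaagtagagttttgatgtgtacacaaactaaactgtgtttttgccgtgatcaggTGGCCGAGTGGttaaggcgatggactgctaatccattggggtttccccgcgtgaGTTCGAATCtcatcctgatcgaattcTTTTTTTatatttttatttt

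Peaks at tRNA genes stood in the upper part of the pooled list but never at its head. In the deposited lists, the signal of a peak is on the scale of the authors' caller and is set within its own list, so it serves here to rank and describe peaks. Over the 296 peaks the signal ran from 32.7 to 219.7, with a median of 60.1 and quartiles of 42.3 and 88.6, against a median of 40.5 over all pooled peaks and a highest value of 1661. The median tRNA peak was at percentile 83.9 of the pooled list. Ranks ran from 129 to 8663, so none of the 128 strongest pooled peaks was at a tRNA gene.

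The IDR list equals the 690 strongest pooled peaks, so membership in it and rank carry the same information. Of the tRNA peaks, 78 (26.4%, Wilson 95% interval 21.7 to 31.6) were in the IDR list, against 7.88% of all pooled peaks and 7.23% of the 8463 pooled peaks away from tRNA genes. Their share of the IDR list grew from its head to its middle. In steps of 100 ranks they made up 0, 4, 10, 15, 20 and 14, and they made up 15 of the last 90. A limit on the q-value in the pooled list (−log10 q of at least 2) keeps more peaks than the IDR list, and with it 100 of 296 tRNA peaks passed (33.8%), against 10.3% of all pooled peaks.

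The strongest was F15G9.t1, an Ala gene in an intron of him-4, which encodes the extracellular matrix protein hemicentin. Its peak (chrX:9743404-9743847) had a signal of 219.7 in the pooled list, 111 in replicate 1 and 110.1 in replicate 2. A second Ala gene, F15G9.t2, lay close to F15G9.t1. The intergenic Leu gene C04A11.t1 followed with 219 pooled, 107 in replicate 1 and 109 in replicate 2. Both replicates ranked these peaks alike, at 144 and 115 for F15G9.t1 and at 153 and 117 for C04A11.t1.

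The Asn gene F41D9.t3, in an intron of the sulfate permease family gene sulp-3, had 195 pooled, 96.2 in replicate 1 and 97.8 in replicate 2. The Glu gene C28G1.t1, which overlaps an exon of C28G1.2, had 193 pooled, 97.1 in replicate 1 and 91.6 in replicate 2. The strongest outside X was the Cys gene C37A2.t1 on chromosome I, in an intron of the cyclin E gene cye-1, with 179.9 pooled, 89.9 in replicate 1 and 95.5 in replicate 2. The replicates differed more for the 2 intergenic Lys genes that came next. W03G11.t1 had 177 pooled but 107 in replicate 1 and 70.0 in replicate 2, and C33G3.t2 had 161 pooled with 93.7 and 68.3.

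The remaining 5 of the 12 strongest had pooled signals of 148 to 151 and lay on 4 chromosomes. They were the Ser gene E03E2.t1 on X, in an intron of the vesicular monoamine transporter gene cat-1, the Leu gene C04A2.t1 on II, in an intron of C04A2.15, the Trp gene B0523.t1 on III, in an intron of the actin-binding protein gene fli-1, and the intergenic genes T23F1.t2 (Pro, on V) and F56F3.t1 (Arg, on III). On chromosome IV the strongest was the intergenic Asp gene F41A4.t1 (chrIV:682851-683294), with 125 pooled, 72.3 in replicate 1 and 48.2 in replicate 2. The weakest IDR member was F15B9.t1 (Ala, chrV:13003377-13003820, in an intron of the formin gene inft-2), with 86.7 pooled, 48.5 in replicate 1 and 37.2 in replicate 2. The strongest tRNA peak left out of the IDR list had 84.7 pooled, 69.8 in replicate 1 and 35.3 in replicate 2, and lay at the Ile gene F57F5.t1 (chrV:12002027-12002470). That gene had another peak that was in the IDR list, with 125.

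Most tRNA peaks recurred in each replicate. A summit within 100 bp was listed in replicate 1 for 244 of the 296 peaks (82.4%, against 68.1% of all pooled peaks) and in replicate 2 for 227 (76.7%, against 58.6%). Both lists held 183 (61.8%, 56.2 to 67.2), against 35.6% of all pooled peaks, and neither held 8 (2.7%, against 8.92%). Of the 78 IDR members, 73 were matched in both (93.6%, 85.9 to 97.2), against 96.2% of all IDR peaks. The IDR summit at F57F5.t1 and 1 of the 2 at R04A9.t1 had no match within 100 bp in replicate 1. Those at ZK678.t1, C05G6.t1 and F31B12.t1 had none in replicate 2. Counted by gene, all 84 tRNA genes with an IDR peak had a summit within 200 bp in replicate 1, and 83 had one in replicate 2. On its own, replicate 1 listed 323 tRNA peaks among 16060 and replicate 2 listed 257 among 9840, of which 71 and 66 were among the 690 strongest of the list. Replicate lists feed the pooled and IDR lists, so these matches are not independent of membership.

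Signal agreed between replicates over the whole set more than at its top. Spearman's rho was 0.66 over the 183 tRNA peaks matched in both replicates, 0.67 for the 76 on X and 0.59 for the 107 on autosomes, and 0.60 over 2935 matched pooled peaks away from tRNA genes. Over the 73 matched IDR members it was 0.24, whereas it was 0.79 over the 591 other matched IDR peaks. The IDR members spanned a narrow range, from 29.4 to 111 in replicate 1 and from 29.6 to 110.1 in replicate 2, while other IDR peaks reached 896 and 772. The part of that range in the lower rho was not tested, and these peaks share libraries and a control.

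**Figure D1:**
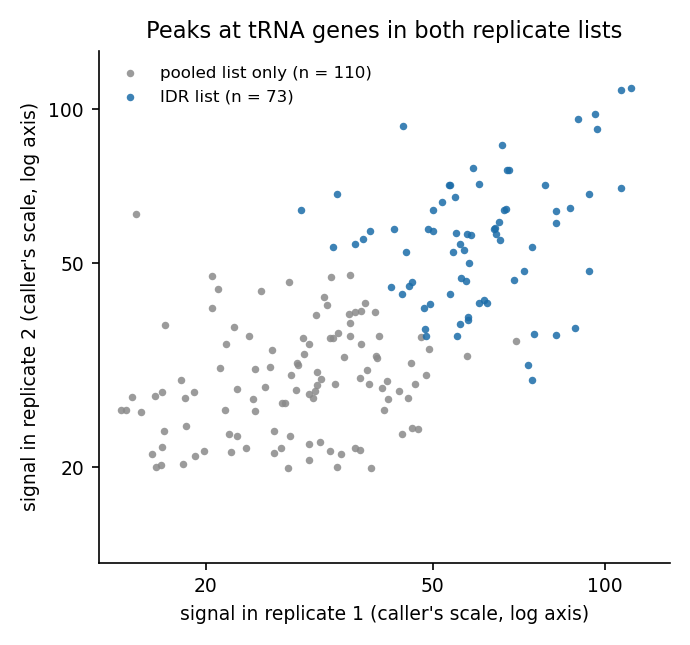
Signal of 183 peaks at tRNA genes in replicate 1 (x axis) and replicate 2 (y axis), each on the scale of its own list and on a log axis. The 73 IDR members (blue) lie above most of the 110 peaks listed only before the IDR test (grey), but show little order among themselves, with a Spearman's rho of 0.24.

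The X chromosome held a large part of the strong tRNA peaks. Of the 612 tRNA genes, 276 (45.1%) are on X, and of the 78 IDR members 47 were on X (60.3%, 49.2 to 70.4). The other IDR members were 6 on I, 5 on II, 7 on III, 8 on IV and 5 on V. Over all 690 IDR peaks, 14.9% were on X.

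X and autosomes differed in the share of strong peaks. A pooled peak was found at 118 of 276 tRNA genes on X (42.8%, 37.1 to 48.7) and at 165 of 336 on autosomes (49.1%, 43.8 to 54.4). An IDR peak was found at 50 genes on X (18.1%, 14 to 23.1) and at 34 on autosomes (10.1%, 7.33 to 13.8). Among the tRNA peaks themselves, 47 of 124 on X were in the IDR list (37.9%, 29.8 to 46.7) and 31 of 172 on autosomes (18%, 13 to 24.4), so that the intervals did not overlap. On the 5 autosomes the shares ran from 14.7% on II to 19.4% on III. Peaks away from tRNA genes had the opposite order, with 4.16% of those on X and 7.81% of those on autosomes in the IDR list.

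**Figure D2:**
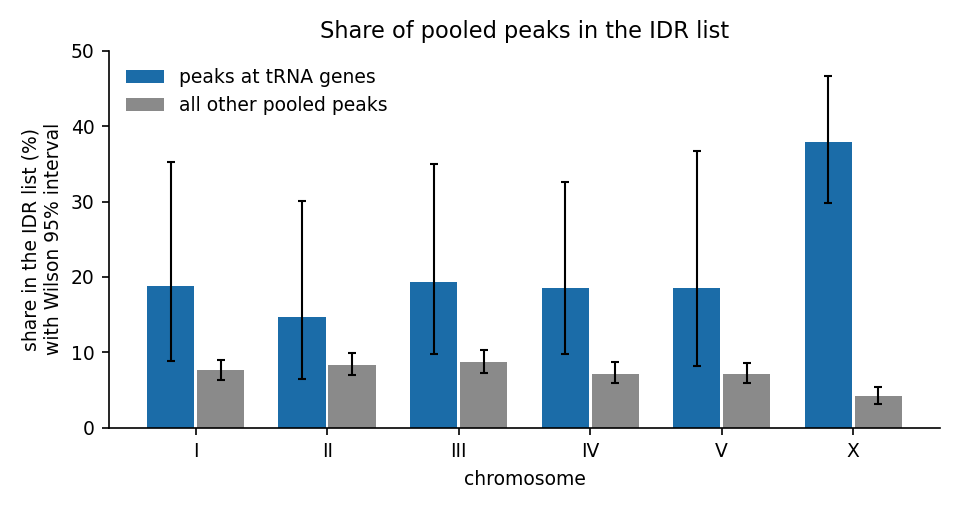
Share of pooled peaks that were in the IDR list (y axis, percent, with Wilson 95% intervals) on each chromosome (x axis), for peaks at tRNA genes (blue) and all other pooled peaks (grey). On X the share is 37.9% for tRNA peaks and 4.16% for the others.

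Each replicate alone had the higher share on X than on the autosomes together. Among the tRNA peaks of replicate 1, 43 of 140 on X (30.7%, 23.7 to 38.8) and 28 of 183 on autosomes (15.3%, 10.8 to 21.2) were among its 690 strongest peaks. In replicate 2 the counts were 38 of 104 on X (36.5%, 27.9 to 46.1) and 28 of 153 on autosomes (18.3%, 13 to 25.2). Single autosomes, each with at most 45 tRNA peaks in a replicate list, ran from 5.41% on I to 21.4% on V in replicate 1 and from 14.3% on III to 26.9% on I in replicate 2. Median signal differed little, with 65 on X and 58.4 on autosomes in the pooled list, and the upper quartile differed more, at 103 and 75. In its own list, the median tRNA peak of replicate 1 was at percentile 89.2 on X and 87.4 on autosomes, and that of replicate 2 at 88.4 and 78. All these values are over listed peaks, so differences below the weakest listed signal cannot be seen.

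**Figure D3:**
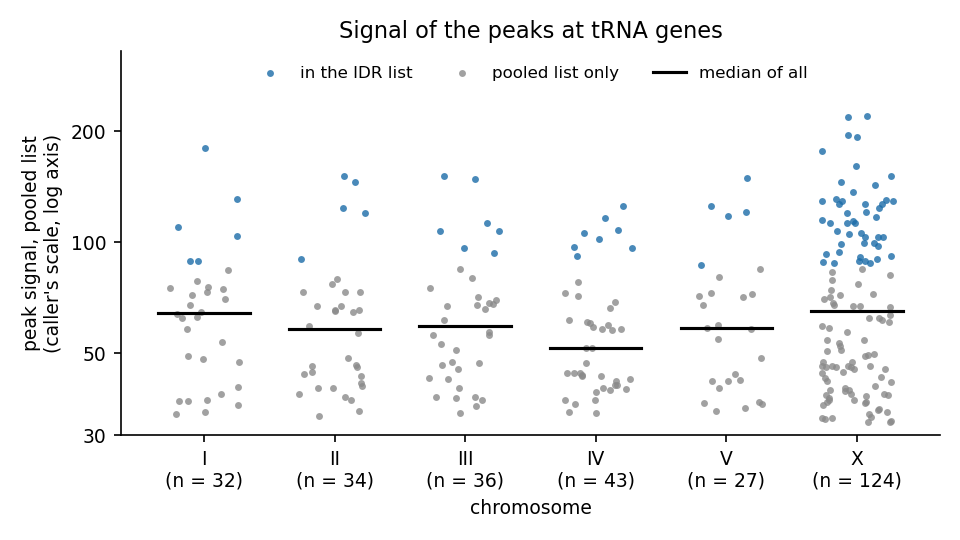
Signal of the 296 peaks at tRNA genes in the pooled list (y axis, the caller's scale, log axis) by chromosome (x axis); points are peaks, blue where they are in the IDR list, and bars are medians. Medians range from 51.8 on IV to 65 on X, and 4 of the 5 values above 179 are on X.

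Most IDR summits lay inside the tRNA gene or upstream of it. Among the 78 IDR members, 40 summits were inside the gene, 26 upstream and 12 downstream, and the median summit was 12 bp into the gene from its 5′ end (quartiles −16.8 and 49), where the gene is 72 bp long in the median. In replicate 1 the matched summits had a median of 20.5 bp and in replicate 2 of 12 bp. Peaks outside the IDR list were more spread, with 85 summits inside, 66 upstream and 67 downstream of 218 and a median of 41 bp. Nearly all tRNA peaks (295 of 296) share the commonest interval width of 444 bp, so the summit and not the interval carries the position. Most tRNA genes have identical copies, and how reads with several matches were placed is unknown here. Its part in the summit positions was not tested.

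Strength was alike up to 50 bp from the gene and lower beyond. Of 125 peaks with the summit inside the gene 32% were in the IDR list, and of 97 with it 1 to 50 bp away 34%. Of 34 at 51 to 100 bp this was 8.82%, and of 40 farther out it was 5%, near the share over all pooled peaks. The members nearest to the limit were T09B4.t1 at 200 bp, Y110A2AL.t1 at 191 bp and F42D1.t1 at 187 bp, with signals of 58.2, 44.1 and 37.4. Just outside lay peaks at Y70C5A.t1 (218 bp), F14B6.t2 (234 bp) and C05G6.t1 (234 bp), with 32.6, 33.1 and 45.1. With the summit inside the gene, 27 of 53 peaks on X (50.9%, 37.9 to 63.9) and 13 of 72 on autosomes (18.1%, 10.9 to 28.5) were in the IDR list.

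**Figure D4:**
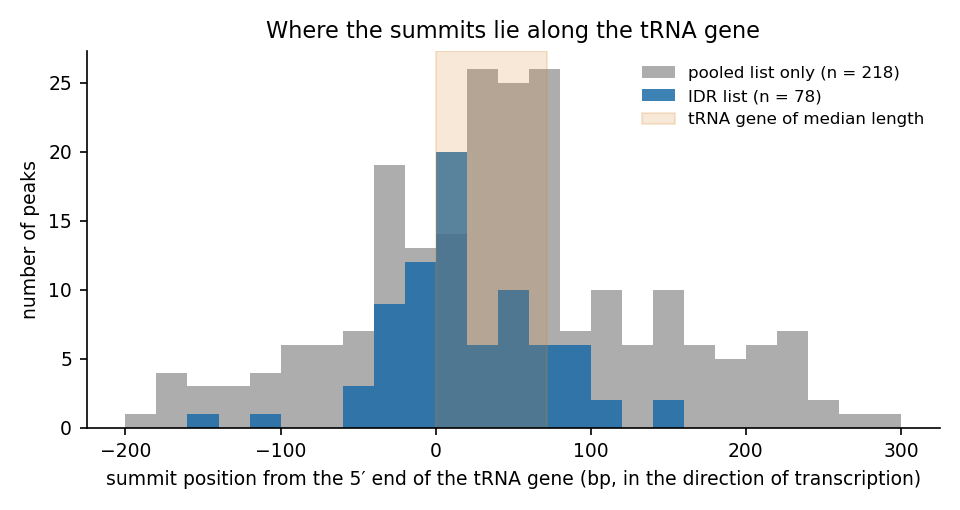
Position of the summit along the tRNA gene (x axis, bp from the 5′ end of the gene in the direction of transcription) against the number of peaks in 20 bp steps (y axis), with IDR members (blue) drawn over peaks listed only before the IDR test (grey). The shaded band is a gene of the median length of 72 bp, and the IDR summits have their median at 12 bp.

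Peaks were found at intronic and intergenic tRNA genes alike. Of the 612 genes, 283 lie in an intron of a protein-coding gene, 319 are intergenic and 10 overlap an exon. A pooled peak was present at 129 intronic genes (45.6%) and at 149 intergenic genes (46.7%). An IDR peak was present at 33 intronic (11.7%, 8.42 to 15.9) and 50 intergenic genes (15.7%, 12.1 to 20.1), and the intervals overlapped. The 33 intronic IDR peaks had 32 different hosts, since ZK1193.2 held both summits at R04A9.t1. In 15 of them the tRNA gene was on the strand of the host and in 18 on the opposite strand. Over all intronic tRNA genes, 160 of 283 were on the strand of the host, of which 10% had an IDR peak, and 122 on the opposite strand, of which 13.9% had one, with overlapping intervals.

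The order of X and autosomes was seen in both places. Among intergenic tRNA peaks 32 of 78 on X (41%) and 12 of 76 on autosomes (15.8%) were in the IDR list, and among intronic ones 14 of 45 (31.1%, 19.5 to 45.7) and 19 of 91 (20.9%, 13.8 to 30.3). The intervals of the intronic pair overlapped. A minority of tRNA peaks, 64 of 296 and 19 of 78 IDR members, also lay in the promoter of a protein-coding gene, taken as 1000 bp upstream to 200 bp downstream of its start, so that for these the nearby start is a second annotation of the same summit.

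Few strong peaks lay close to each other, but their spacing was not set against that of other peaks or of tRNA genes. No 3 IDR members lay within 10 kb of one another, and the median gap between neighbouring IDR members on a chromosome was 428296 bp. Only 3 pairs lay within 10 kb. They were C14B9.t1 (Met) and C14B9.t2 (Leu) on III, 3021 bp apart, C02B4.t1 (Ile) and C02B4.t2 (Tyr) on X, 4099 bp apart, and the 2 summits at R04A9.t1 (Gln) on X, 201 bp apart. In the pooled list the largest run with gaps of at most 10 kb had 7 tRNA peaks, from Y7A9D.t3 to Y65A5A.t4 on IV, none of them in the IDR list. Another of 6 on X at F12D9.t1 to F12D9.t5 also had none. Of the 10 runs of 3 or more peaks, that at C14B9.t1 and C14B9.t2 held 2 IDR members. Those that begin at Y54G2A.t5 on IV and at F52H2.t2 and C16B8.t1 on X held 1 each.

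The share of genes with a peak was lower where another tRNA gene lay close by. Of 236 tRNA genes with another within 1 kb, 76 had a pooled peak (32.2%, 26.6 to 38.4) and 17 an IDR peak (7.2%, 4.55 to 11.2). Of the 376 that stand farther apart, 207 had a pooled peak (55.1%) and 67 an IDR peak (17.8%, 14.3 to 22), and neither pair of intervals overlapped. On X an IDR peak was present at 8.15% of genes with a close neighbour and 27.7% of the others, and on autosomes at 5.94% and 11.9%, where the intervals overlapped. For pooled peaks the shares on X were 25.2% (18.6 to 33.1) and 59.6% (51.3 to 67.3). On autosomes they were 41.6% (32.5 to 51.3) and 52.3% (46 to 58.6), again with overlapping intervals.

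The sequence just before the gene differed between tRNA genes with and without a peak. The median AT content of the 50 bp upstream was 54% for the 84 genes with an IDR peak, 54% for the 199 with a peak in the pooled list alone and 62% for the 329 with none. With the genes split into 4 classes of AT content, a pooled peak was present at 107 of 155 genes with 30 to 50% AT (69%, 61.4 to 75.8), 101 of 188 with 52 to 58% (53.7%), 46 of 132 with 60 to 64% (34.8%) and 29 of 137 with 66 to 88% (21.2%, 15.2 to 28.7). IDR peaks followed the same order, at 21.3%, 16%, 12.1% and 3.65% of the genes.

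**Figure D5:**
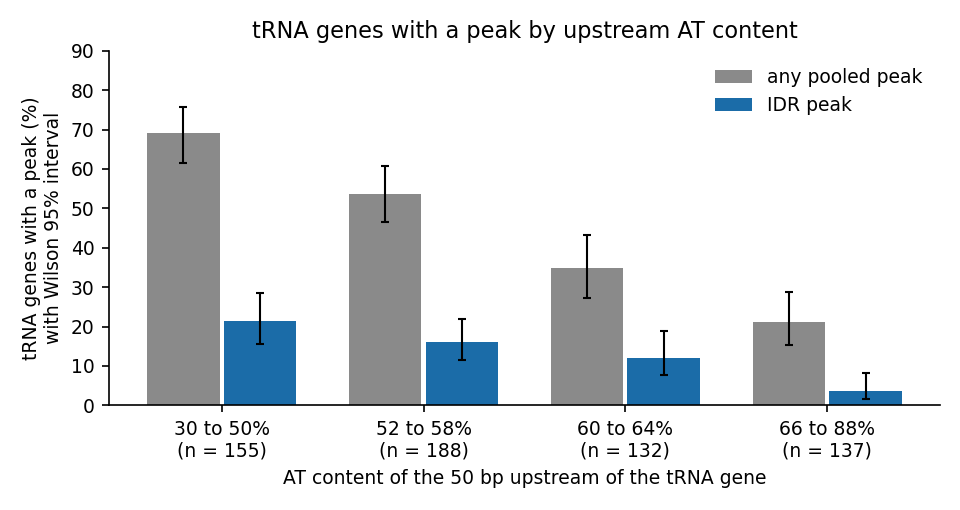
Share of tRNA genes with a peak (y axis, percent, with Wilson 95% intervals) in 4 classes of the AT content of the 50 bp upstream of the gene (x axis, with the number of genes), for any pooled peak (grey) and for an IDR peak (blue). The share with a pooled peak goes from 69% in the class lowest in AT to 21.2% in the highest.

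This order was present on X and on autosomes. For IDR peaks it went from 39.1% of 46 genes to 3.8% of 79 on X and from 13.8% of 109 to 3.45% of 58 on autosomes, where the intervals of these end classes overlapped. It was also present among identical genes. The 612 tRNA genes have 200 distinct sequences, and in 41 groups of identical copies some copies had a pooled peak and others did not. The copies with a peak had the lower median upstream AT content in 33 of the 41 groups, the higher in 6 and the same in 2. In the pairs printed above, E03E2.t1 had 44% and K04A8.t2 64%, C33G3.t2 had 48% and W07G4.t1 62%, F15G9.t1 had 54% and Y105C5A.t2 56%, and C28G1.t1 and F11A1.t2 both had 62%.

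The difference in AT content was not confined to tRNA genes. At snoRNA genes, which guide the modification of other RNAs, the median upstream AT content was 44% for 45 genes with an IDR peak, 46% for 56 with a pooled peak alone and 62% for 245 with none. Within 100 bp of the summit, IDR tRNA peaks had a median of 52% AT, tRNA peaks outside the IDR list 56.2%, other IDR peaks 57.2% and other pooled peaks 57.7%. Base composition can move read recovery in sequencing, and its part in these shares was not tested.

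Most tRNA genes are repeated in the genome. Of the 612 genes, 469 have at least 1 identical copy, and in the median gene no word of 36 bases was found once only in the genome. The gene with 200 bp to either side held 88.6% unique words in the median for genes with an IDR peak, 88.8% for genes with a pooled peak alone and 88.1% for those with none. Within 100 bp of the summit, 72.3% of words were unique in the median IDR member, while the median over all pooled peaks was 100%. The sources used here do not say how reads with several matches were placed. The height and the summit position of a peak at a repeated gene are therefore uncertain. Of the 57 groups of identical copies, 35 had an IDR peak at some copy, and 34 of these also had copies without one. In 8 of the 57 groups every copy had a pooled peak. Genes with an identical copy made up 83.3% of those with an IDR peak, 83.9% of those with a pooled peak alone and 70.5% of those with none. An IDR peak was present at 14.9% (12 to 18.4) of genes with an identical copy and at 9.79% (5.92 to 15.8) of the others.

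The elements of the internal promoter were found in most tRNA genes, with and without a peak. The A box was found in 592 of 612 genes, in all 84 with an IDR peak, in 197 of 199 with a pooled peak alone and in 311 of 329 with none. Of the 20 genes without an A box match, 2 had a pooled peak (10%, 2.79 to 30.1), against 47.5% (43.5 to 51.5) of the 592 with a match. These intervals did not overlap, and the share over all tRNA genes was 46.2%. None of the 20 had an IDR peak, which allows a share of up to 16.1% by the Wilson interval. That range overlaps the interval of genes with a match (14.2%, 11.6 to 17.2). The B box core GTTCGANTC was present in 46.7% of the genes and in 48.8%, 46.2% and 46.5% of those with an IDR peak, a pooled peak alone and none. A looser core, GTTCNANNC, which covers every match of the first, was present in 95.9% of the genes. A run of 4 T followed 98.7% of the genes within 25 bp.

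Among summits, the B box core was found on either strand within 100 bp of 38 of 78 IDR tRNA peaks (48.7%). It was found at 29.4% of the 218 tRNA peaks outside the IDR list and at 1.31% of the other 612 IDR peaks. For the looser core the shares were 92.3%, 70.2% and 8.66%. The members were chosen for their nearness to tRNA genes, which carry these cores, so the contrast with other peaks follows from the choice. The T-box core GGTGT, searched on both strands, was within 100 bp of 25 IDR tRNA summits (32.1%, 22.7 to 43), of 28.1% of other IDR summits and of 25.4% of other pooled summits outside the IDR list. Inside the tRNA gene it was found in 10 of the 84 genes with an IDR peak (11.9%) and in 17% of all tRNA genes.

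Every amino acid but selenocysteine had a gene with an IDR peak. An isotype is the set of tRNA genes for one amino acid, and 607 of the genes could be given one from RefSeq. The most genes with an IDR peak were those of Glu and Leu with 8 each (of 41 and 39) and Gly, Arg, Pro and Ala with 7 each (of 55, 44, 42 and 34). Shares ran from 3.7% of 27 Gln genes to 20.6% of 34 Ala genes, with intervals of 0.657 to 18.3 and 10.3 to 36.8. The selenocysteine gene, the only one of its kind, had a pooled peak but no IDR peak, and the 5 genes without an isotype had no peak in either list.

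Peaks were also counted at other small RNA genes. Peaks at snoRNA genes were in the IDR list in 44 of 106 cases (41.5%, 32.6 to 51), against 26.4% (21.7 to 31.6) of tRNA peaks, and none of the 44 was on X, where 9.54% of snoRNA genes lie. Per gene, an IDR peak was present at 13% of 346 snoRNA genes (9.86 to 17) and at 13.7% of the tRNA genes (11.2 to 16.7). Peaks at snRNA genes, which encode splicing RNAs, were in the IDR list in 8 of 44 cases (18.2%, 9.51 to 32), and this interval overlaps that of tRNA peaks. None of the 16 annotated 5S rRNA genes, which RNA polymerase III also transcribes, had a pooled peak. This allows a share of up to 19.4% by the Wilson interval. How reads with several matches were placed is unknown here as well, and its part in this count was not tested. Peaks beside none of these classes were in the IDR list in 6.73% of cases.

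Genes for the tRNA machinery were also examined at their own promoters. None of 19 genes for RNA polymerase III and its factors had an IDR summit in the promoter, which allows a share of up to 16.8% by the Wilson interval. Of 24 genes for tRNA processing 5 had one, so that 5 of 43 in both lists were bound (11.6%, 5.07 to 24.5), against 3.12% of 19973 protein-coding genes. They were elpc-1 (signal 184), elpc-2 (231) and elpc-4 (207), which encode subunits of the Elongator complex that modifies the wobble uridine of tRNAs, rtcb-1 (158), which encodes the ligase of tRNA splicing, and mtcu-2 (95.7), which encodes an enzyme of mitochondrial tRNA modification. Elongator subunit gene elpc-3 had none. With a shorter promoter of 500 bp upstream to 100 bp downstream, rtcb-1 and elpc-4 dropped out. Then 3 of the 43 were bound (6.98%, 2.4 to 18.6), against 2.46% of all protein-coding genes, which lies within that interval.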

How the data were processed

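Deposited ce11 peak lists in narrowPeak form were used: 1 per replicate, 1 for both replicates pooled and 1 after the IDR test. Per the metadata deposited with the samples, each list was made from alignments and 1 further file, taken here as the control, which both replicates share. The signal column and the −log10 q-value column were deposited by the authors and are on their caller's own scale. The aligner, the caller and the sequencing depth are not given in the sources used here. The ce10 lists were not used.

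Summits were the start plus the offset column. Genes were those of Ensembl release 115 on WBcel235, and sequences and isotypes were from RefSeq on the same assembly. Summits of different lists were matched within 100 bp. For comparison with the IDR list, the 690 strongest peaks of a replicate list were used. Uniqueness is the share of words of 36 bases that occur once in the genome on either strand. Shares carry Wilson 95% intervals, which cover counting error only, since neighbouring peaks and copies of a gene are not independent. No test across conditions was possible, and no p-value was computed. The distance and matching steps were tested on simulated data, where 300 of 300 planted summits were found.

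Genes were named by rule: the 12 strongest IDR members, the strongest on each chromosome, the weakest IDR member, the strongest outside it, close groups, members at the distance limit, the isotypes with most IDR peaks and bound machinery genes. In each printed pair the gene without a peak is the first identical copy with a B box core, in annotation order, off chromosome I. Members unmatched in a replicate and the neighbour and base composition results were chosen after their values were seen. The members and lists were chosen with earlier results of these data known. Of the machinery symbols, snpc-3.3 and rpp-25 were not matched in the annotation. Work used Python 3.11.15, numpy 2.4.6, pandas 2.3.3, scipy 1.17.1 and matplotlib 3.10.9.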

Additional observations from a re-analysis of the deposited data

How the results depend on the processing

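Of 89 recomputed values, 75 stayed within the 95% interval of the value reported (for the count of peaks, within 1.5 times of it, and for the rho, within an approximate interval from Fisher's z, 0.57 to 0.74) and 14 did not. Some settings left little room to move. A limit to tRNA genes with mostly unique surroundings kept all 296 tRNA peaks, and membership by interval overlap gave 297. Limiting the pooled list to a −log10 q of at least 2 left 100 tRNA peaks, of which 78% were in the IDR list and 94% matched in both replicates, with a median percentile of 94.2 and a peak at 17.2% of the tRNA genes, since only 905 pooled peaks remain. A summit distance of 100 bp left a peak at 41.7% of the tRNA genes. Matching summits within 50 bp or 200 bp gave 41.6% and 74.7% matched in both replicates. The rho between replicates was 0.24 over IDR members alone. The B box core was in 25.6% of windows of 50 bp to either side, and the looser core in 92.3% of windows of 100 bp. With the summit inside the gene, 50.9% of tRNA peaks on X were in the IDR list. For the median AT content of genes without a pooled peak, 30 bp upstream gave 56.7%, against 53.3% for genes with one. The looser core, the AT windows, all splits into X and autosomes and the single replicate values for pooled and IDR shares were chosen after seeing the data.

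Without 1 replicate, using the list of the other alone, the share of tRNA genes with a peak was 39.7% to 49.8%, with an IDR-sized list 11.3% to 12.7%, the share of tRNA peaks among the strongest 22% to 25.7%, on X 30.7% to 36.5% and on autosomes 15.3% to 18.3%, the share of strong tRNA peaks on X 57.6% to 60.6% and the median summit position 13 to 15 bp. On X 14.1% to 17% of genes had a strong peak and on autosomes 8.93% to 9.23%. The share in the IDR list stayed higher on X than on autosomes, for tRNA peaks and for tRNA genes, in every setting tried for it. No paired analysis was possible because the design held 1 group. Depth is unknown, so a tRNA gene without a listed peak is not shown to lack binding.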
